A study of Homo sapiens with 9 samples.

Results

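The genes described here are 36 genes of the G1/S transition and of DNA replication, out of 19775 genes on the arrays. They were chosen by name for their role: 4 genes of origin licensing, 11 of the replicative helicase and its activation, 3 of the sliding clamp and clamp loader, 4 of the polymerases, primase and flap endonuclease, 4 of nucleotide supply, 6 of the E2F and cyclin E axis, and 4 of chromatin and histone supply at the fork. Each gene was read from the probe set with the highest mean among those annotated to that gene alone, and all 36 lay above the intensity filter that left 12616 genes to test. RNA had been profiled on 9 Affymetrix arrays. All samples were the A549 line, derived from a lung adenocarcinoma and grown in serum with no further treatment. The groups were cells with a control oligo (si-Ctrl, 3 arrays), cells in which RNA interference targeted MED23 (si-Med23, 3 arrays) and cells in which it targeted ELK1 (si-Elk1, 3 arrays). Each array of a knockdown group came from a different line with its own oligo, named A, B or C, so the spread within a knockdown includes the difference between oligos. Whether the control samples were separate cultures is not in the labels, so the p-values rest on the spread of these samples alone, which may be technical. The sources used here give no time between oligo delivery and harvest. In bulk RNA of this kind, fewer cells in S phase and less of a transcript per cell cannot be told apart.

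MED23 is a subunit of Mediator, which carries signals from transcription factors on to the polymerase, and ELK1 is an ETS family transcription factor that ERK phosphorylates. Before S phase, ORC, CDC6 and CDT1 load the MCM ring on origins, CDC45 and the GINS complex turn it into an active helicase, and primase and the polymerases copy DNA behind a PCNA clamp that the RFC complex loads. Many of these genes share control by E2F factors, which cyclin E with CDK2 releases from the RB family, so that the set is known to rise together as cells commit to division.

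The targeted transcripts matched the labels. The log2 signal of MED23 was 9.27, 9.05 and 9.08 in si-Ctrl, 6.79, 6.19 and 7.06 in si-Med23 A, B and C, and 8.87, 9.02 and 8.18 in si-Elk1 A, B and C. ELK1 read 9.36, 9.61 and 9.29 in si-Ctrl, 9.98, 10.36 and 9.54 in si-Med23 and 7.07, 7.15 and 7.83 in si-Elk1. Each knockdown left its own target below every control array. All 5 epithelial markers listed passed the filter (a mean of at least log2 6.05), and the keratin KRT18 was bright on every array (15.05 to 15.75). These markers were not level between groups. Against si-Ctrl (limma, adjusted p under 0.05) 4 of the 5 were higher in si-Med23 and 1 in si-Elk1. Their summed linear signal was 50031.5 to 55119.7 in si-Ctrl, 65609.1 to 93389.7 in si-Med23 and 53938.7 to 66839.7 in si-Elk1. In the same order KRT19 read 10.39 to 10.58, 10.88 to 12.55 and 9.61 to 9.97. CDH1 read 10.66 to 10.78, 11.59 to 12.46 and 11.72 to 11.8. Of markers of other cell types or of the alveolar type II state, 3 of 6 type II markers passed the filter (SFTPB, SFTPC and ABCA3, but not NKX2-1, SFTPD or LAMP3), 4 of 6 haematopoietic markers (CD3E, CD79A, ITGAM and HBB, but not PTPRC or LYZ), 2 of 4 endothelial markers (PECAM1 and ROBO4, but not VWF or CDH5) and 1 of 5 fibroblast markers (COL1A1). The filter is a mean over all 9 arrays, so a gene that did not pass can exceed that level in 1 group. LAMP3 did so on every si-Med23 array (6.88, 6.45 and 6.80) and on no other. DCN did so on every si-Elk1 array (7.16, 7.39 and 7.57) and on some controls. The summed linear signal of the type II list ranged from 605.5 to 768 over the control arrays, 1010.3 to 1349 over si-Med23 and 809 to 943.5 over si-Elk1, with ABCA3 higher by 1.59 in si-Med23. That of the fibroblast list was 767.5 to 845, 1729.7 to 2731 and 1298 to 1713.5 in the same order. COL1A1, its only gene above the filter, had mean log2 signals of 9.24, 11.00 and 10.19. The mean log2 signal of the whole fibroblast list was 5.49 to 6.09, 5.00 to 5.35 and 6.02 to 6.89, so the list did not share the rise in si-Med23. The summed signal of the haematopoietic list was 645 to 945, 567 to 683.5 and 842 to 1027, and that of the endothelial list 264 to 335, 237 to 339 and 253 to 455. The part of any of these marker lists in the results below was not tested. The array's own controls were not level. The 24 probe sets for poly-A spikes, bacterial RNA added before labelling, averaged 7.61 ± 0.20 (SD, n = 3) on the log2 scale in the controls, 9.22 ± 0.12 under MED23 depletion and 8.25 ± 0.29 under ELK1 depletion, and the 18 hybridization controls averaged 11.83 ± 0.06, 12.33 ± 0.06 and 12.01 ± 0.10. Scaling the arrays on the poly-A spikes shifted all log2 differences by -1.61 for si-Med23 less si-Ctrl, -0.64 for si-Elk1 less si-Ctrl and -0.97 between the knockdowns. The corresponding shifts on the hybridization controls were -0.50, -0.18 and -0.32, and those on the array medians were 0.23, -0.14 and 0.37. Directions below are those of the deposited scaling and are relative to it, and the part of these shifts in any result was not tested.

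The promoters of the set were searched for motif letters. The letters were not used in choosing the genes. Many of the genes were already known to share E2F control, however, so a high E2F share is no independent result. Windows of 300 bases, from 250 before to 50 after the RefSeq gene start (GRCh38.p14), were held for 32 of the 36 genes. The E2F core, searched on both strands as TTCCCGC or TTCGCGC or TTGCCGC or TTGGCGC, was present for 26 of these 32 genes (81.2%), against 24.3% of the 10259 tested genes with a window. Counted by window it stood in 28 of 41 (68.3%), against 18.5% of the 14917 windows of tested genes and 13.0% of all 35116 windows. The ETS core CCGGAA, the letters that ELK1 and its relatives bind, was present for 10 of the 32 genes (31.2%), close to the 33.6% of tested genes. The CCAAT box was found for 20 of the 32 (62.5%) against 43.0% of tested genes. The CHR letters TTTGAA, typical of genes of late cell cycle, were found for 1 (3.12%) against 13.8%, and for 16 of 21 G2/M genes (76.2%). The E2F core stood in 5 of 7 windows of the genes lower in si-Med23, in 2 of 3 of those higher and for 19 of 22 genes that did not pass there. These matches describe letters, not bound sites. For a gene with several windows, the stretch with the most E2F core matches is printed, and no gene lacking the core is shown. The 6 stretches below are the 160 bases directly before the start of genes from both directions, 5′ to 3′ on the coding strand, with the E2F core in either orientation in capitals: RFC3 (chr13:33817989-33818148, plus strand), POLA1 (chrX:24693758-24693917, plus) and PRIM1 (chr12:56752324-56752483, minus), which were lower in si-Med23; GINS2 (chr16:85688955-85689114, minus) and UHRF1 (chr19:4909341-4909500, plus), which were higher in si-Med23 than in si-Elk1; and MCM6 (chr2:135876444-135876603, minus), which moved little.
RFC3: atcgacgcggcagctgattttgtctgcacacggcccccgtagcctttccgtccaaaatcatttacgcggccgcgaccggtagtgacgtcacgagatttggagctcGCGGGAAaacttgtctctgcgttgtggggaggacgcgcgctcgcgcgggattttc
POLA1: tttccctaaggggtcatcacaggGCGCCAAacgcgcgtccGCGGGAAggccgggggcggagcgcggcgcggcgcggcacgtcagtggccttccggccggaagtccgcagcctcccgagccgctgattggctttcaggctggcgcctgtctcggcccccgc
PRIM1: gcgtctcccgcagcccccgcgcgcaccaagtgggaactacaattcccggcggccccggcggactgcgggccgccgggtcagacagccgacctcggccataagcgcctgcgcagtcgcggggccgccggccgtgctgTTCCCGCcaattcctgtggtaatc
GINS2: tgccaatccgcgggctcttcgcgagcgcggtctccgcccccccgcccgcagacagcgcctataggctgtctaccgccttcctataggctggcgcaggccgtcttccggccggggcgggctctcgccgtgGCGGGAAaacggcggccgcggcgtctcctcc
UHRF1: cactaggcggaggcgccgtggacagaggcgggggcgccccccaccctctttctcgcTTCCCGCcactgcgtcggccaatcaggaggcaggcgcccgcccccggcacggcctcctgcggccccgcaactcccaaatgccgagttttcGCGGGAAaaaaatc
MCM6: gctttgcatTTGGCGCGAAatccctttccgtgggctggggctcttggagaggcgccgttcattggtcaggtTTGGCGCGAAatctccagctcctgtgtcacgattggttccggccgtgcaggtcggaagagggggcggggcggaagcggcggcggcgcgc
In the MCM6 stretch the core letters of the opposite strands overlap, which gives 4 matches in 2 runs of capitals. The POLA1 stretch holds 2 ETS core matches, that of GINS2 holds 1 and that of RFC3 holds 0.

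**Figure D1:**
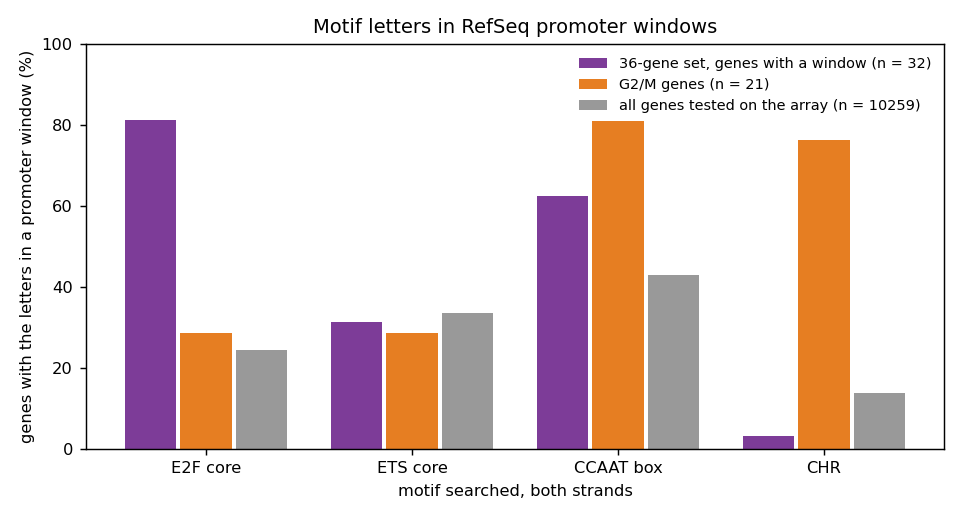
Share of genes (%) whose RefSeq promoter window holds the letters of each motif, for the replication genes with a window (n = 32), 21 G2/M genes and all 10259 tested genes with a window. The E2F core bar of the replication genes stands at 81.2% against 24.3% of tested genes, while the ETS core bars are close together.

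In si-Med23, transcripts fell for the clamp loader subunits RFC3 and RFC4, POLA1 of the initiating polymerase, the primase subunit PRIM1 and the leading-strand polymerase subunit POLE2. Those of the initiation factor MCM10, the repressor E2F8, the cyclin CCNE2 and the histone mRNA binding protein SLBP also fell. Other subunits of the loader and polymerases, outside the set, did not all fall, as given below. Transcripts of MCM5, GINS2, the cyclin CCNE1 and the chromatin assembly subunit CHAF1B rose. The 4 rises did not pass with scaling on the hybridization controls and turned into falls with scaling on the poly-A spikes, as given below. In total 13 of the 36 genes passed an adjusted p of 0.05 (limma, Benjamini-Hochberg over all 12616 genes), 4 higher and 9 lower, which is 36.1%. Of all genes tested 39.8% passed, 20.3% higher and 19.5% lower, so the number of calls is no larger than the background of this comparison. For 16 of the genes the si-Med23 and control arrays did not overlap, against 57.3% of all genes, with si-Med23 above for 6 (31.7% of all genes) and below for 10 (25.6%). At an unadjusted p of 0.05, 17 genes passed, against 50.3% of all genes. The split of 4 higher and 9 lower became 0 and 17 with scaling on the hybridization controls, 0 and 36 on the poly-A spikes and 12 and 5 on the array medians, where the falls of PRIM1, RFC4, CCNE2 and SLBP no longer passed. The count fell to 8 without si-Ctrl 1 and without si-Med23 B.

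In si-Elk1 the differences of the set were mostly downward, from -0.93 for CCNE2 to 0.27 for PCNA. Of the 36 genes 34 had a lower mean in si-Elk1 than in si-Ctrl, the exceptions being PCNA and CCNE1, whereas 44.5% of all tested genes were lower. No gene of the set passed (0 of 36, limma), against 4.26% of all genes, 3.07% higher and 1.19% lower, and the smallest adjusted p was 0.0545, for CDC6. At an unadjusted p of 0.05, 12 of the 36 passed, against 25.1% of all genes. All 3 si-Elk1 arrays lay below all 3 controls for 19 genes and above them for 1, PCNA, against 15.1% and 21.1% of all genes (36.3% in either direction). The median log2 difference of the set was -0.27, beside 0.05 for all genes tested. With array weights 7 genes passed, all lower, with scaling on the poly-A spikes 34, and without si-Med23 C, which shares the estimate of spread, 2 (E2F8 and MCM10).

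The knockdowns were then compared directly, a difference in which no control array is averaged, although the controls enter the estimate of spread in the fit of all 9 arrays. Of the 36 genes 7 were higher in si-Med23 than in si-Elk1 (CDC6, MCM5, GINS1, GINS2, TK1, CHAF1B and UHRF1) and 3 were lower (RFC3, POLA1 and POLE2). These 10 are 27.8% of the set, against 21.7% of all genes, 9.54% higher and 12.2% lower. The arrays of the groups did not overlap for 13 genes above and 3 below, against 18.5% and 19.5% of all genes (38% in either direction), and 17 genes passed an unadjusted p of 0.05, against 39.7%. The split of 7 higher and 3 lower became 0 and 26 with scaling on the poly-A spikes, 1 and 8 on the hybridization controls and 22 and 0 on the array medians. In a fit of only the 6 knockdown arrays 3 genes passed. The count was 6 without any of the 3 controls, 5 and 4 without si-Med23 A and B, and 2 and 3 without si-Elk1 A and B. Since si-Ctrl serves both comparisons with the controls, the values of each gene are given side by side, and no overlap of those comparisons was counted as a result.

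**Figure D2:**
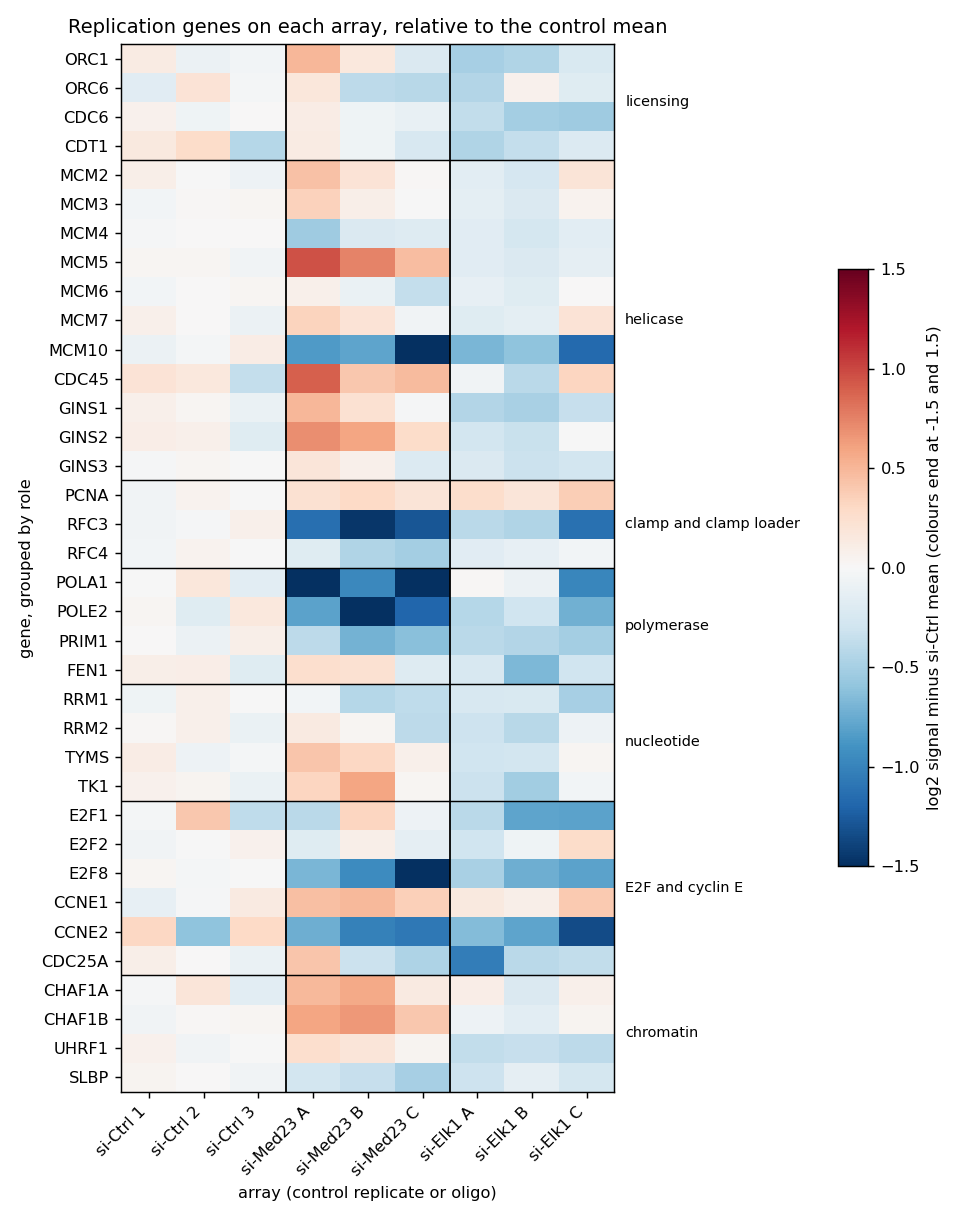
Log2 signal of each of the 36 genes on each of the 9 arrays minus the si-Ctrl mean of that gene, grouped by role, red above and blue below the control mean. The si-Elk1 columns are pale blue for most genes, while the si-Med23 columns hold strong blue for RFC3, POLA1, POLE2, MCM10 and E2F8 (falls of 1.05 to 1.45) and red for MCM5, which turns to a fall with poly-A spike scaling.

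No licensing gene passed against si-Ctrl in either knockdown (limma, 0 of 4), and at an unadjusted p of 0.05 0 passed in si-Med23 and 1 in si-Elk1. Of all tested genes 39.8% passed in si-Med23 and 4.26% in si-Elk1 (50.3% and 25.1% unadjusted). Each role holds few genes, so no count by role, here or below, was read as a result about that role. CDC6, the ATPase that with ORC loads the MCM ring, read 11.50, 11.37 and 11.44 on the log2 scale in si-Ctrl, 11.55, 11.38 and 11.33 in si-Med23 A, B and C, and 11.07, 10.93 and 10.90 in si-Elk1 A, B and C. The si-Elk1 arrays were the lowest 3, with no overlap with either other group, and the si-Med23 arrays lay around the controls. Its log2 difference was -0.02 ± 0.11 (SE, n = 3 arrays per group) in si-Med23 against si-Ctrl, with a 95% interval of -0.28 to 0.24, and -0.47 ± 0.11 in si-Elk1 against si-Ctrl, or 72.3% of the control level, which did not pass (adjusted p = 0.0545). Between the knockdowns CDC6 differed by 0.45 ± 0.11 (adjusted p = 0.0277), a call lost without si-Med23 A or B or si-Elk1 A or B (adjusted p = 0.0608 to 0.0886). ORC1, the large ATPase subunit of the origin recognition complex, read 9.57, 9.37 and 9.42 in si-Ctrl, 9.95, 9.61 and 9.24 in si-Med23, and 8.96, 9.00 and 9.22 in si-Elk1. Here too the si-Elk1 arrays were the lowest, si-Med23 overlapped the controls, and no comparison passed (adjusted p = 0.540 for si-Med23 and 0.221 for si-Elk1, each relative to si-Ctrl, and 0.0639 between the knockdowns). ORC6 and CDT1, the subunit and the partner that bring MCM rings to ORC, overlapped between all groups and had differences from -0.34 to 0.28, none of which passed, while a dimmer CDT1 probe set gave 0.64 in si-Med23 and 0.84 between the knockdowns.

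Among the 11 helicase genes MCM5 and GINS2 rose in si-Med23, or fell with poly-A spike scaling, and MCM10 fell. That is 27.3% of these genes, against 39.8% of all tested genes. MCM5, a subunit of the MCM ring, read 11.92, 11.92 and 11.84 in the controls, 12.84, 12.64 and 12.36 in si-Med23 and 11.72, 11.67 and 11.75 in si-Elk1. All si-Med23 arrays were above all others and oligo A was highest. MCM5 rose by 0.72 ± 0.14 in si-Med23 (1.65-fold, adjusted p = 0.00544) and exceeded si-Elk1 by 0.90 ± 0.14 (adjusted p = 0.00698), while its difference in si-Elk1 was -0.17 (adjusted p = 0.441). Both calls held with each array left out in turn, yet scaling on the poly-A spikes turned them to -0.89 and -0.08, and the first was lost with scaling on the hybridization controls (0.22, adjusted p = 0.275). The dimmer MCM5 probe set gave smaller differences of 0.35 and 0.46, with which neither passed once probe sets ending in _x_at or _s_at were left out (adjusted p = 0.104 and 0.0627). The other 5 subunits of the ring did not pass in si-Med23, with log2 differences of 0.22 for MCM2, 0.14 for MCM3, -0.32 for MCM4, -0.12 for MCM6 and 0.16 for MCM7. In si-Elk1 the same 5 differed by -0.20 to -0.04. For MCM4 the probe sets disagreed in si-Med23, with -0.32 in the brightest and 0.53, -0.06 and 0.29 in the other 3 above the filter.

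GINS2 and GINS1 belong to the GINS complex, which joins CDC45 and the MCM ring to make the moving helicase. GINS2 read 12.27, 12.25 and 11.98 in si-Ctrl, 12.86, 12.76 and 12.44 in si-Med23, and 11.89, 11.83 and 12.16 in si-Elk1. The si-Med23 arrays were the highest 3 and the si-Elk1 arrays overlapped the controls. GINS2 rose by 0.52 ± 0.16 in si-Med23 (1.44-fold, adjusted p = 0.0296) and exceeded si-Elk1 by 0.73 ± 0.16 (adjusted p = 0.0178). The first call was lost without si-Ctrl 1, 2 or 3 or si-Med23 A or B (adjusted p = 0.0533 to 0.106), the other without si-Med23 A or B or si-Elk1 A or B (0.0507 to 0.0661), and the 2 dimmer GINS2 probe sets gave -0.07 and -0.54 in si-Med23 against si-Ctrl and -0.09 and -1.75 between the knockdowns. GINS1 read 12.98, 12.94 and 12.80 in si-Ctrl, 13.41, 13.14 and 12.89 in si-Med23, and 12.47, 12.43 and 12.57 in si-Elk1. Its si-Elk1 arrays were the lowest, and 1 si-Med23 array, oligo C, fell among the controls. GINS1 differed between the knockdowns by 0.66 ± 0.15 (adjusted p = 0.0192), a call lost without si-Med23 B or si-Elk1 A or B (0.0515 to 0.0677), and its differences from si-Ctrl, 0.24 and -0.42, did not pass. CDC45, the remaining partner of the ring, was at 0.59 ± 0.24 in si-Med23 against si-Ctrl (adjusted p = 0.0748) with all si-Med23 arrays above the controls, and GINS3 was at 0.02 (adjusted p = 0.923).

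MCM10, which is no part of the ring and helps to fire the assembled helicase, went the other way. Its log2 signals were 11.20, 11.27 and 11.41 in si-Ctrl, 10.44, 10.51 and 9.79 in si-Med23, and 10.61, 10.69 and 10.13 in si-Elk1. Oligo C was the lowest array of each knockdown, and no knockdown array reached the controls. MCM10 fell by 1.05 ± 0.22 in si-Med23, to 48.3% of the control level (adjusted p = 0.00806), and this call held in each alternative that was run. In si-Elk1 it was at -0.82 ± 0.22, or 56.7% (adjusted p = 0.0722), and the knockdowns differed by -0.23 ± 0.22, with a 95% interval of -0.74 to 0.28. Its 2 other probe sets gave -0.72 and -1.05 in si-Med23 and -0.52 and -0.67 in si-Elk1, against si-Ctrl.

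Both clamp loader subunits of the set fell in si-Med23, where 19.5% of all tested genes fell, and the clamp did not pass. RFC3, a small subunit of replication factor C, read 12.01, 12.05 and 12.14 in si-Ctrl, 10.93, 10.61 and 10.78 in si-Med23, and 11.67, 11.62 and 10.95 in si-Elk1. The 3 groups were fully separated, with si-Elk1 C only just above the highest si-Med23 array. RFC3 fell by 1.29 ± 0.20 in si-Med23, to 40.8% of control (adjusted p = 0.00276), a call kept in each alternative that was run, and its difference in si-Elk1 was -0.65 ± 0.20 (adjusted p = 0.0892). Between the knockdowns it differed by -0.64 ± 0.20 (adjusted p = 0.0490), and that call was lost without any of 8 arrays (0.0702 to 0.154) and kept without si-Elk1 C. Median centring also lost it (-0.27, adjusted p = 0.32). The dimmer RFC3 probe set gave -1.45 in si-Med23, -0.96 in si-Elk1 and -0.49 between the knockdowns. RFC4, another small subunit, read 12.01, 12.10 and 12.04 in si-Ctrl, 11.87, 11.59 and 11.54 in si-Med23, and 11.88, 11.93 and 12.01 in si-Elk1. Its si-Med23 arrays were the lowest 3, with si-Med23 A next to the lowest si-Elk1 array. RFC4 fell by 0.38 ± 0.12 in si-Med23 (adjusted p = 0.0350), kept only without si-Med23 A or si-Elk1 C among the 9 arrays left out in turn (0.0505 to 0.10 otherwise). PCNA, the clamp itself and the brightest gene of the set, read 14.02, 14.11 and 14.06 in si-Ctrl, 14.29, 14.36 and 14.26 in si-Med23 and 14.33, 14.25 and 14.43 in si-Elk1. Every knockdown array was above every control, yet the differences of 0.24 ± 0.10 and 0.27 ± 0.10 did not pass (adjusted p = 0.0952 and 0.154).

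Of the 4 enzymes that start, extend and trim new strands, 3 fell in si-Med23, where 19.5% of all tested genes fell. POLA1 had the largest fall of the 36 genes. POLA1, the catalytic subunit of DNA polymerase alpha, read 10.07, 10.25 and 9.92 in si-Ctrl, 8.58, 9.11 and 8.20 in si-Med23, and 10.09, 9.99 and 9.10 in si-Elk1. In si-Elk1 oligos A and B stayed at control level and oligo C reached down to the highest si-Med23 array, with which it overlapped. POLA1 fell by 1.45 ± 0.30 in si-Med23, to 36.6% of control (adjusted p = 0.00763, kept in each alternative that was run), and its difference in si-Elk1 was -0.35 ± 0.30 (adjusted p = 0.487). The knockdowns differed by -1.10 ± 0.30 (adjusted p = 0.0361), a call kept only without si-Med23 B or si-Elk1 C (0.0514 to 0.118 without each of the other 7 arrays). Median centring also lost it (-0.73, adjusted p = 0.0871). POLE2, the accessory subunit of polymerase epsilon, read 11.15, 10.94 and 11.28 in si-Ctrl, 10.32, 9.58 and 9.93 in si-Med23, and 10.70, 10.82 and 10.40 in si-Elk1. The 3 groups did not overlap and si-Elk1 lay between the others. POLE2 fell by 1.18 ± 0.21 in si-Med23, to 44.2% of control (adjusted p = 0.00422, kept in each alternative that was run), and was lower than si-Elk1 by -0.70 ± 0.21 (adjusted p = 0.0435, kept only without si-Med23 A or si-Elk1 C, and 0.0584 to 0.133 without each of the other 7). Its difference in si-Elk1 was -0.48 (adjusted p = 0.190). With median centring the POLE2 call between the knockdowns was lost (-0.33, adjusted p = 0.26).

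PRIM1, the catalytic subunit of primase that lays the RNA primer for POLA1, read 11.41, 11.33 and 11.49 in si-Ctrl, 11.01, 10.70 and 10.78 in si-Med23, and 11.00, 10.98 and 10.90 in si-Elk1. Neither knockdown overlapped the controls, and the knockdowns overlapped each other. PRIM1 fell by 0.58 ± 0.12 in si-Med23 (67.0% of control, adjusted p = 0.00756, lost with median centring at -0.35, adjusted p = 0.0579) and was at -0.45 ± 0.12 in si-Elk1 (73.1%, adjusted p = 0.0690). FEN1, the flap endonuclease that trims Okazaki fragments, was at 0.09 in si-Med23 and -0.40 ± 0.18 in si-Elk1, and did not pass (adjusted p = 0.694 and 0.200). The promoter stretches of POLA1 and PRIM1 printed above carry the E2F core, as does that of the little changed MCM6.

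**Figure D3:**
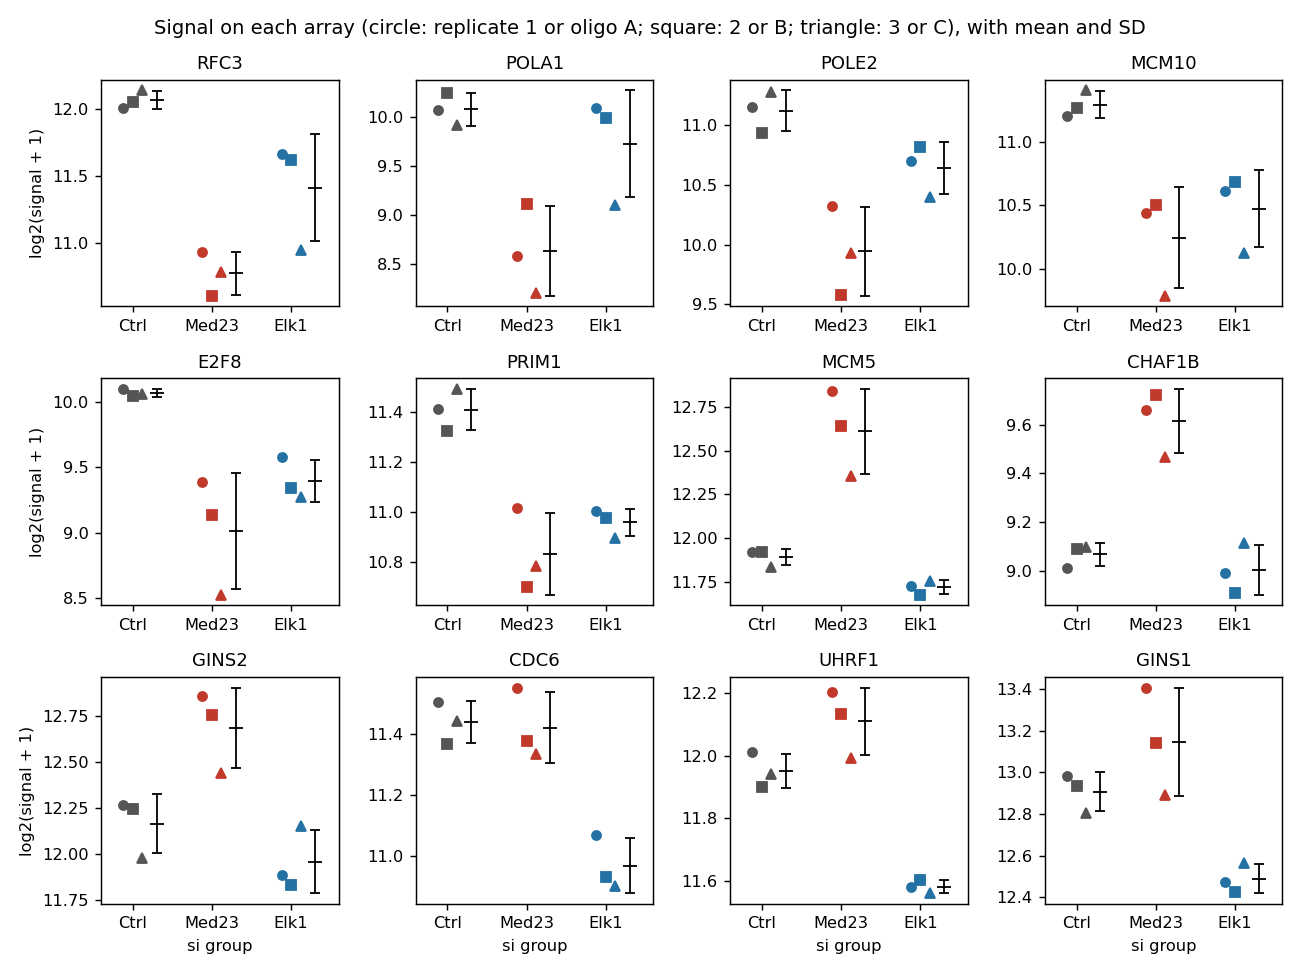
Log2 signals of 12 genes on the 9 arrays, a point per array with the group mean and SD (n = 3) as bars, marked by replicate or oligo. RFC3, POLA1, POLE2, MCM10, E2F8 and PRIM1 have their lowest mean in si-Med23, MCM5, CHAF1B and GINS2 their highest (lower than si-Ctrl with poly-A spike scaling), and CDC6, UHRF1 and GINS1 their lowest in si-Elk1.

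Genes of nucleotide supply did not pass against si-Ctrl in either knockdown (limma, 0 of 4, and 0 at an unadjusted p of 0.05). Of all tested genes 39.8% passed in si-Med23 and 4.26% in si-Elk1 (50.3% and 25.1% unadjusted). RRM1 and RRM2, the subunits of ribonucleotide reductase, were at -0.28 and -0.08 in si-Med23 and at -0.32 and -0.27 in si-Elk1. TYMS, the thymidylate synthase, was at 0.27 and -0.18, and the knockdowns differed by 0.45 ± 0.14 without overlap of their arrays (adjusted p = 0.0548). TK1, the thymidine kinase of S phase, read 12.19, 12.17 and 12.02 in si-Ctrl, 12.46, 12.72 and 12.15 in si-Med23, and 11.81, 11.61 and 12.09 in si-Elk1. The si-Med23 arrays lay above the si-Elk1 arrays, and both groups overlapped the controls. TK1 differed between the knockdowns by 0.61 ± 0.18 (1.52-fold, adjusted p = 0.0427), a call kept only without si-Med23 C or si-Elk1 C (0.0610 to 0.134 without each of the other 7 arrays). With quantile normalization the TK1 call was lost (0.54, adjusted p = 0.0527).

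In the E2F and cyclin E axis E2F8 and CCNE2 fell in si-Med23 and CCNE1 rose, the last in the deposited scaling but not with control-based scalings. E2F8, an atypical E2F that represses transcription in late S phase, read 10.10, 10.05 and 10.06 in si-Ctrl, 9.39, 9.13 and 8.52 in si-Med23, and 9.58, 9.34 and 9.27 in si-Elk1. Both knockdowns lay below the tight controls, and they overlapped each other. E2F8 fell by 1.06 ± 0.21 in si-Med23, to 48.1% of control (adjusted p = 0.00632, kept in each alternative that was run), and was at -0.67 ± 0.21 in si-Elk1, or 62.7% (adjusted p = 0.0964). CCNE2 read 8.52, 7.59 and 8.50 in si-Ctrl, 7.47, 7.18 and 7.13 in si-Med23, and 7.55, 7.41 and 6.85 in si-Elk1. Control array 2 stood near the knockdown arrays, although no array overlapped. CCNE2 fell by 0.94 ± 0.28 in si-Med23 (52.2% of control, adjusted p = 0.0278), and in si-Elk1 it was at -0.93 ± 0.28 (52.5%, adjusted p = 0.0898). The si-Med23 call was lost without si-Ctrl 1 or 3 or si-Med23 B or C (0.0745 to 0.0942). It was also lost with quantile normalization (-0.75, adjusted p = 0.0645), with median centring (-0.71, adjusted p = 0.0708) and without the filter (adjusted p = 0.0684). CCNE1, the paralog of CCNE2, read 10.63, 10.74 and 10.89 in si-Ctrl, 11.20, 11.24 and 11.12 in si-Med23, and 10.90, 10.84 and 11.14 in si-Elk1. The si-Med23 arrays cleared the controls, and the si-Elk1 arrays overlapped both. CCNE1 rose by 0.43 ± 0.13 in si-Med23 (1.35-fold, adjusted p = 0.0258), lost without si-Ctrl 1 or 2 or si-Med23 A or B (0.0631 to 0.0926) and at -0.07 with scaling on the hybridization controls.

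The activator E2F1 varied between its own controls, at 9.47, 9.90 and 9.11, against 9.09, 9.82 and 9.42 in si-Med23 and 9.09, 8.70 and 8.70 in si-Elk1. All si-Elk1 arrays lay below the controls by a narrow margin, and the difference of -0.66 ± 0.25 did not pass (adjusted p = 0.146). CDC25A, the phosphatase that activates CDK2, was at -0.13 in si-Med23 and -0.60 ± 0.26 in si-Elk1 (adjusted p = 0.719 and 0.191). A nearly as bright E2F1 probe set gave 0.07 in si-Elk1 and 0.27 in si-Med23, so the E2F1 probe sets disagreed. E2F2 overlapped between all groups in its brightest probe set, with differences from -0.08 to -0.03, while a dimmer one above the filter gave 1.24 in si-Elk1, 0.13 in si-Med23 and -1.11 between the knockdowns.

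Of the 4 chromatin genes 1 rose in si-Med23, CHAF1B, or fell with poly-A spike scaling, and 1 fell, SLBP. Of all tested genes 20.3% rose and 19.5% fell there. CHAF1B is the middle subunit of the assembly factor that places histones behind the fork. Its log2 signals were 9.01, 9.09 and 9.10 in si-Ctrl, 9.66, 9.72 and 9.47 in si-Med23, and 8.99, 8.91 and 9.11 in si-Elk1. The si-Med23 arrays were apart from and above the rest, and the si-Elk1 arrays lay around the controls. CHAF1B rose by 0.55 ± 0.12 in si-Med23 (1.46-fold, adjusted p = 0.00806) and exceeded si-Elk1 by 0.61 ± 0.12 (adjusted p = 0.0125), and both calls held with each array left out in turn but became -1.06 and -0.36 with poly-A spike scaling. CHAF1A, its larger partner, was at 0.40 ± 0.16 in si-Med23 (adjusted p = 0.0792) and -0.02 in si-Elk1. UHRF1, which guides maintenance of DNA methylation at the fork, read 12.01, 11.90 and 11.94 in si-Ctrl, 12.20, 12.13 and 11.99 in si-Med23, and 11.58, 11.60 and 11.56 in si-Elk1. The si-Elk1 arrays sat close together below all others, and si-Med23 C lay within the controls. UHRF1 differed between the knockdowns by 0.53 ± 0.11 (1.44-fold, adjusted p = 0.0146, lost without si-Elk1 A at 0.0545), and its si-Elk1 level was 77.4% of control (-0.37 ± 0.11, adjusted p = 0.0812). SLBP, which binds the stem-loop of histone mRNA, read 12.44, 12.41 and 12.35 in si-Ctrl, 12.12, 12.05 and 11.90 in si-Med23 and 12.09, 12.26 and 12.13 in si-Elk1. Neither knockdown reached the controls. SLBP fell by 0.37 ± 0.11 in si-Med23 (77.2% of control, adjusted p = 0.0276), lost without si-Ctrl 1, 2 or 3 or si-Med23 B or C (0.0573 to 0.0881), and was at -0.24 in si-Elk1 (adjusted p = 0.221).

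**Figure D4:**
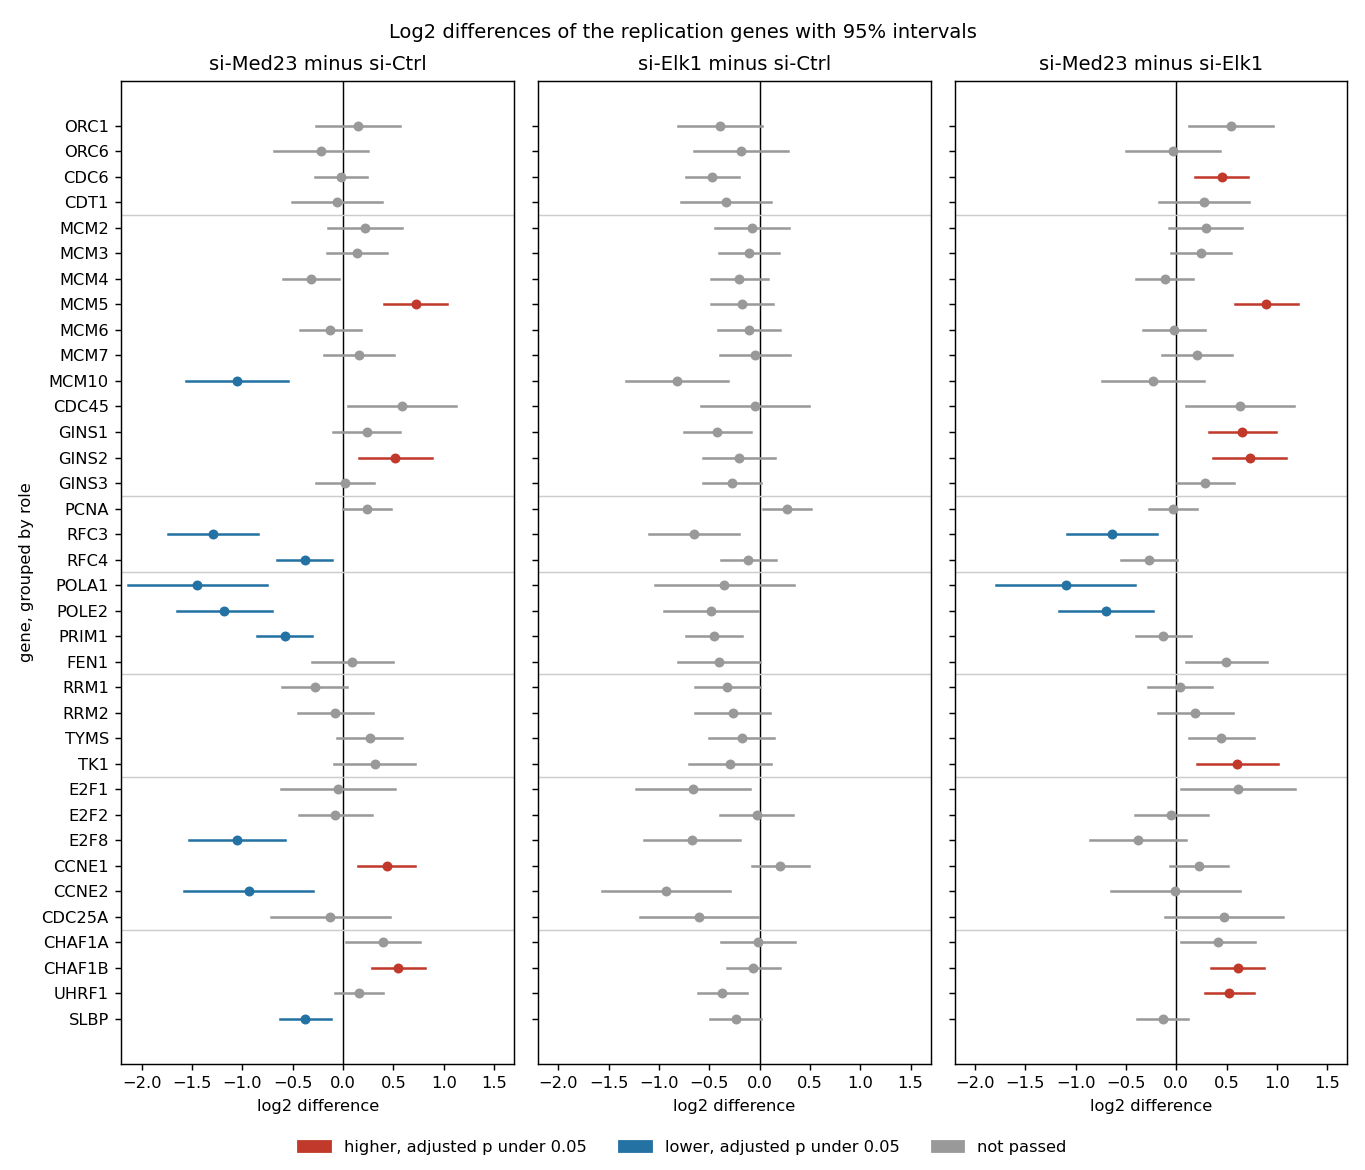
Log2 difference of each gene in the 3 comparisons, points with 95% intervals from limma (n = 3 arrays per group), coloured where the adjusted p was under 0.05. In si-Med23 against si-Ctrl 9 genes are blue (5 with median centring) and 4 red (0 red with either control-based scaling). In si-Elk1 against si-Ctrl 34 points lie left of 0 and 0 are coloured. Between the knockdowns 7 are red (0 with poly-A spike scaling) and 3 blue (0 with median centring).

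The arrays of a knockdown differed among themselves. The median of the 36 genes, relative to each gene's control mean, was 0.18 in si-Med23 A, 0.08 in B and -0.20 in C, and -0.30, -0.31 and -0.19 in si-Elk1 A, B and C. In si-Med23 A 21 genes lay above all 3 controls and 12 below, whereas in si-Med23 C 6 lay above and 20 below. In si-Elk1 A and B 31 genes each lay below all 3 controls, and in si-Elk1 C 21 did and 8 lay above. The share of all genes outside the controls was not counted for single arrays. These counts and medians therefore describe the arrays, and whether they are particular to the set was not tested. The 9 genes that fell in si-Med23, chosen by these same arrays, had medians of -0.73, -0.94 and -1.19 in si-Med23 A, B and C.

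Across the whole set the medians can be read beside all genes tested. In si-Med23 against si-Ctrl the median of the 36 genes was -0.03 and that of all genes 0.09, a gap of -0.13 that ranged from -0.15 to -0.04 over 23 settings. In si-Elk1 against si-Ctrl the gap was -0.32, from -0.39 to -0.29. Between the knockdowns the set stood at 0.23 and all genes at -0.03, a gap of 0.26 that ranged from 0.17 to 0.36. These settings include scalings on controls or array medians, which shift the set and all genes together. Others cannot change a median difference, such as the replicate block, the prior and leaving out arrays of the group not compared. Each range therefore rests on fewer than 23 separate checks.

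**Figure D5:**
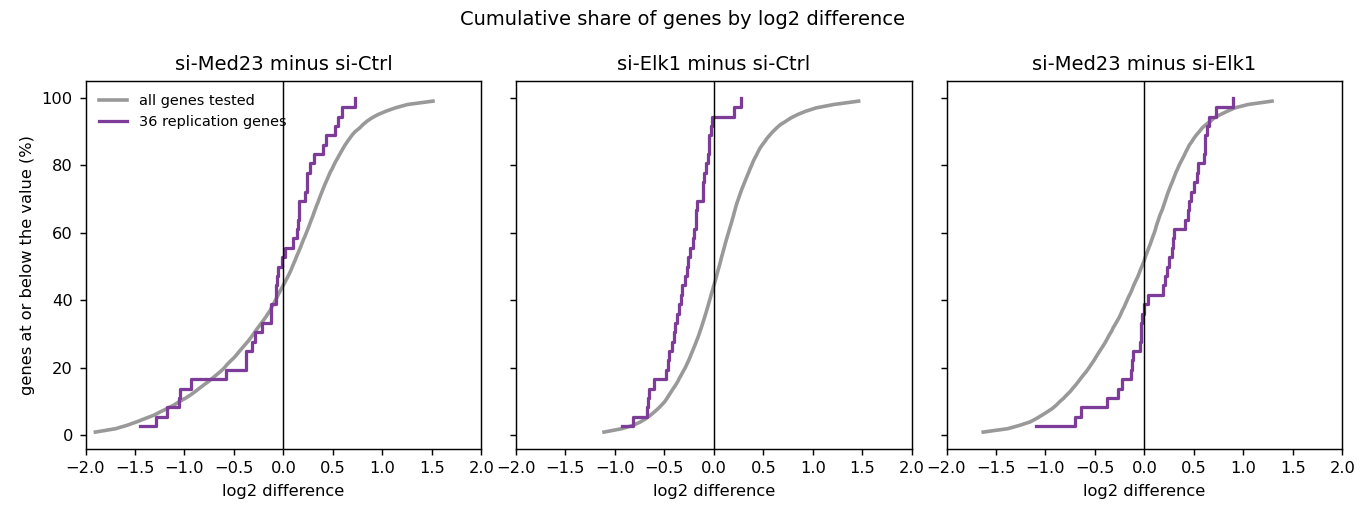
Cumulative share (%) of the 36 replication genes and of all 12616 tested genes by log2 difference, for the 3 comparisons under the deposited scaling. In si-Elk1 against si-Ctrl the replication curve lies left of the curve of all genes with 94.4% of it below 0, and in si-Med23 against si-Elk1 it lies to the right over most of its length.

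Other genes of the pathway were counted in the same fits. Of 50 tested replication genes outside the set, 7 were higher and 18 lower in si-Med23 than in si-Ctrl (median -0.11), 1 higher and 2 lower in si-Elk1 (median -0.20), and 6 higher and 11 lower between the knockdowns (median -0.03). Of all tested genes 20.3% were higher and 19.5% lower in si-Med23, 3.07% and 1.19% in si-Elk1, and 9.54% and 12.2% between the knockdowns, with medians of 0.09, 0.05 and -0.03, and the counts of each list below stand beside these shares. The strongest in si-Med23 by p were DSCC1, a subunit of the clamp loader of cohesion (-1.47 ± 0.16), TIPIN, of the fork protection complex (-1.27 ± 0.14), DBF4, the activator of the CDC7 kinase (-1.44 ± 0.19), and the MCM paralog MCM8 (-1.75 ± 0.25), with adjusted p of 0.00184 to 0.00256. DSCC1 (-0.92 ± 0.16, adjusted p = 0.0207) and TIPIN (-0.73 ± 0.14, adjusted p = 0.0293) also fell in si-Elk1, where POLD4, a small subunit of polymerase delta, rose by 0.89 ± 0.15 (adjusted p = 0.0207) and POLD2 was at 0.54 (adjusted p = 0.0525). Between the knockdowns the origin subunit ORC2 (-0.90), MCM8 (-1.26) and the kinase CDC7 (-1.02) were lower in si-Med23, and the histone chaperone RBBP4 was higher (0.87). The POLD4 call was lost with scaling on the hybridization controls (0.71, adjusted p = 0.0604) and on the poly-A spikes (0.25, adjusted p = 0.441), and RBBP4 turned to -0.10 with poly-A spikes. Of the other subunits of RFC, polymerase alpha with primase and polymerase epsilon, RFC1 fell by 1.16 in si-Med23 (adjusted p = 0.00932). RFC2 (0.29), RFC5 (0.26), POLA2 (0.40), PRIM2 (-0.25), POLE (0.15), POLE3 (-0.003) and POLE4 (0.38) did not pass there. Between the knockdowns RFC5 (0.58) and POLA2 (0.54) were higher in si-Med23 (adjusted p = 0.0277 and 0.0388), the reverse of RFC3 and POLA1, and the rest did not pass.

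Of 22 tested E2F and G1/S regulators outside the set, 3 were higher and 9 lower in si-Med23 (median -0.22), 0 higher and 2 lower in si-Elk1 (median -0.20), and 1 higher and 2 lower between the knockdowns (median 0.09). RB1, the retinoblastoma protein that holds E2F in check, fell by 1.45 ± 0.30, the G1 kinase CDK6 by 1.39 ± 0.26 and FBXO5, an inhibitor of the anaphase-promoting complex, by 1.06 ± 0.16 in si-Med23, while the CDK inhibitor CDKN1A rose by 0.89 ± 0.16 (adjusted p = 0.00266 to 0.00745), a rise that turned to -0.72 with poly-A spike scaling. In si-Elk1 CDK6 fell by 1.29 ± 0.26 (adjusted p = 0.0345) and the repressor E2F7 by 0.75 ± 0.15 (adjusted p = 0.0358), while the S phase cyclin CCNA2 was at -0.71 and CDKN1A at 0.62 (adjusted p = 0.0525 and 0.0644). Between the knockdowns RBL2, a relative of RB1, was lower in si-Med23 by -1.26, FBXO5 by -0.62 (lost with median centring at -0.25, adjusted p = 0.268) and the kinase CDK2 higher by 0.58, or lower by -0.39 with poly-A spike scaling, while E2F5 was at -0.53 (adjusted p = 0.0515). The 25 G2/M genes had 17 lower and 0 higher calls in si-Med23 (median -1.17), among them the mitotic kinases CDK1 (-1.49) and TTK (-1.43) and the kinetochore subunit NUF2 (-1.71). In si-Elk1 2 of them were lower (median -0.39) and all 25 lay below the control mean. Between the knockdowns 8 were lower and 1 higher (median -0.65), beside 3 lower and 7 higher among the 36 replication genes. The difference between those lists was not tested.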

How the data were processed

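RNA of 9 A549 samples was measured on Affymetrix arrays, 3 per group. The authors deposited linear intensities, 1 per probe set. RMA and MAS5 stand in the submitters' processing notes without a role. The 2% trimmed mean was 500.07 to 500.08 on each array, as a common scaling leaves it, so a change in total messenger RNA is not visible, and array medians were 64.9 to 88.2. No genome build is named in the sources used here. The number of arrays limits the precision, and no detection calls were used.

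Signals were taken as log2(value + 1). Of 54675 probe sets, 41091 were annotated to 1 gene, 1801 to several, 11721 to none and 62 were controls, and 41037 gene identifiers were found in RefSeq, with 0 symbols updated. Each of 19775 genes kept its brightest single-gene probe set, and the 12616 genes at or above the median of probe set means (log2 6.05, signal 65.4) were tested. The 36 genes have 68 probe sets, 62 of them above that level.

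Differences were fitted with limma 3.58.1 in R 4.3.3 (lmFit, eBayes, two-sided) in 1 fit of 9 arrays, adjusted by Benjamini-Hochberg over the 12616 genes, with a threshold of 0.05. The fit was also run on simulated data with independent noise, few changed genes and no shift of whole arrays. That run does not bear on the scaling of these arrays. The genes named are all 36, the targets, the 4 other replication genes and the 4 other regulators with the smallest p in each comparison, and 3 G2/M genes. The other subunits of RFC, of polymerase alpha with primase and of polymerase epsilon are named beside those of the set. The genes, lists and tests were chosen with earlier results of these data known. Alternatives were the filter, pseudocount, choice of probe set, scaling, arrays in the fit, a replicate block, array weights, the prior and each array left out in turn. Promoter windows came from a RefSeq table of GRCh38.p14.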

Additional observations from a re-analysis of the deposited data

Results flagged for a closer look

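The following genes differed between the knockdowns in a direct test (limma, si-Med23 against si-Elk1, adjusted over 12616 genes), where 27.8% of the 36 genes passed against 21.7% of all genes. Among helicase and licensing genes the log2 difference was 0.90 for MCM5, 0.73 for GINS2, 0.66 for GINS1 and 0.45 for CDC6. Among nucleotide and chromatin genes it was 0.61 for TK1, 0.61 for CHAF1B and 0.53 for UHRF1. For the clamp loader and polymerase genes it was -0.64 for RFC3, -1.10 for POLA1 and -0.70 for POLE2. The arrays of the knockdowns did not overlap for these genes, POLA1 excepted. The 7 positive values turned negative with scaling on the poly-A spikes. With median centring the negative calls were lost, at -0.27 for RFC3, -0.73 for POLA1 and -0.33 for POLE2 (limma, adjusted p = 0.32, 0.0871 and 0.26).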

How the results depend on the processing

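With each array left out in turn, 8 of the 13 calls of si-Med23 against si-Ctrl and 2 of the 10 between the knockdowns were kept throughout, and 5 and 0 were kept in every alternative. Over those omissions the counts of genes called were 8 to 13 in si-Med23 against si-Ctrl, 0 to 2 in si-Elk1 against si-Ctrl and 2 to 13 between the knockdowns. Other counts that moved by over 1.5 times were as follows. In si-Med23 against si-Ctrl, 8 genes passed without the filter and 36 with poly-A spike scaling. In si-Elk1 against si-Ctrl, where 0 passed, 7 did with array weights, 1 with hybridization control scaling, 3 with median centring, 1 in a fit of only the 6 arrays compared, 34 with poly-A spike scaling, 4 with the stricter filter, 6 with a trended and robust prior and 1 without probe sets ending in _x_at or _s_at. Between the knockdowns, 22 passed with median centring, 3 without the filter, 3 in a fit of only the 6 arrays and 26 with poly-A spike scaling. The genes' median moved with scaling on the hybridization controls, the array medians and the poly-A spikes to -0.53, 0.20 and -1.65 in si-Med23 against si-Ctrl, -0.45, -0.41 and -0.91 in si-Elk1 against si-Ctrl, and -0.081, 0.60 and -0.74 between the knockdowns. Genes below the control mean in si-Elk1, a count chosen after the data were seen, numbered 24 to 36, the lowest with fewer probe sets tested. Values that reversed with poly-A spike scaling were, against si-Ctrl in si-Med23, CCNE1 -1.18, CHAF1B -1.06, GINS2 -1.09 and MCM5 -0.89, and, between the knockdowns, CDC6 -0.52, CHAF1B -0.36, GINS1 -0.32, GINS2 -0.24, MCM5 -0.076, TK1 -0.37 and UHRF1 -0.44. CCNE1 reversed to -0.065 with hybridization control scaling. When all probe sets of a gene were averaged GINS2 reversed to -0.0285 for si-Med23 less si-Ctrl and -0.37 between the knockdowns, and to -0.066 and -0.086 without probe sets ending in _x_at or _s_at. These scalings shift every gene of an array alike, and the cause of the other changes was not tested.

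Same-numbered arrays did not deviate together (correlations of -0.18 to 0.05), and differently numbered ones ranged from -0.06 to 0.12. Within a knockdown the number goes with the oligo, so these correlations cannot exclude a shared batch. With the replicate number as a block, 9 genes passed in si-Med23 against si-Ctrl, 0 in si-Elk1 against si-Ctrl and 6 between the knockdowns.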
